A study of Mus musculus with 82 samples.

Results

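The genes of the tumour necrosis factor (TNF) superfamily, the Toll-like receptors (TLR) and the NF-kB pathway were followed across mouse hematopoietic stem and progenitor cells. Members were chosen by gene symbol alone, namely Tnf, every Tnfrsf, Tnfsf and numbered Tnfaip gene, every Tlr and Nfkb gene, Rel, Rela, Relb, Traf1 to Traf6 and every Ikbk gene. This gave 74 members of 55376 genes in the count files: 14 ligand genes (Tnfsf13os, an antisense transcript at Tnfsf13, among them by its symbol), 20 receptors, 8 TNF-induced proteins, 12 TLRs, 6 TRAF adaptors, 3 Ikbk genes, 5 NF-kB subunits and 6 IkB inhibitors and related genes.

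The mRNA-seq libraries covered bone marrow hematopoietic stem cells (HSCs) from young (YHSC, n = 4) and old (OHSC, n = 8) male C57BL/6J mice, sorted as lineage-negative Sca-1+ c-kit+ CD34- Flk2- CD150+ cells. They also covered OHSCs transduced with lentiviral control shRNA, shRNA1 or shRNA2, either kept in culture for days (2 libraries each) or transplanted into young female recipients and sorted back after months (2 libraries each), and wild-type young common myeloid progenitors (CMP), granulocyte-macrophage progenitors (GMP) and megakaryocyte-erythroid progenitors (MEP) with 2 libraries each. Both shRNAs target nBtaf1, a shorter variant of Btaf1, a regulator of the TATA-binding protein, and the control is a scrambled sequence. Chromatin of YHSCs and OHSCs was profiled by ATAC-seq (4 libraries each) and H3K27ac ChIP-seq (2 each), with H3K4me3 and H3K27me3 for YHSCs. Young HSC libraries came from pooled mice and old ones from single mice, transplanted HSCs were pooled over recipients, and the transplanted cells were sorted with another gate (CD48- CD150+ CD45.2+). The transplanted libraries are separate pools of recipients, but no separate donors or transductions are named, so their p-values may not measure the spread between donors. No separate cultures or animals are named for the cultured and progenitor libraries, so their p-values measure the spread between these libraries, which may be technical.

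TNF superfamily ligands bind receptors that recruit TRAF adaptors, and TLRs sense microbial products through MyD88 and TRIF adaptors that converge on TRAF6. Both routes activate the IKK complex (the products of Chuk, Ikbkb and Ikbkg, to which Ikbke encodes a related kinase). The complex marks IkB inhibitors such as Nfkbia for destruction and releases NF-kB dimers such as those of Rela, Rel and Nfkb1. The other subunits, Relb and Nfkb2, are those of the alternative pathway. HSCs carry functional TNF receptors and TLRs, and Nfkbia and Tnfaip3 are themselves induced by NF-kB and restrain it.

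The upstream sequences of the NF-kB subunit Rel and of its inhibitor Nfkbia, which return below, are shown because each holds letters of the NF-kB (kB) motif. Each run is the 250 bases before the RefSeq gene start on the gene's own strand, 5′ to 3′, from RefSeq on GRCm38.p6, the same build as mm10, with the motif in capitals. The motif was searched as GGGNNNTTCC or GGGNNTTCCC and, for the other strand, as GGAANNNCCC or GGGAANNCCC, and the forms can overlap. A sequence was found for 59 members, of which 12 (20.3%) held a match, against 1522 of 27025 promoters of all genes (5.63%).
Nfkbia (chr12:55492648-55492897, - strand): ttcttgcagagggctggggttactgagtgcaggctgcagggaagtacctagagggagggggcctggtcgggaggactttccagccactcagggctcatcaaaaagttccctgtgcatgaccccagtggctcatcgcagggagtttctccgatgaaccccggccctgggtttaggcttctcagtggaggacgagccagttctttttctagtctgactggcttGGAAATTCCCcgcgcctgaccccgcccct
Rel (chr11:23770970-23771219, - strand): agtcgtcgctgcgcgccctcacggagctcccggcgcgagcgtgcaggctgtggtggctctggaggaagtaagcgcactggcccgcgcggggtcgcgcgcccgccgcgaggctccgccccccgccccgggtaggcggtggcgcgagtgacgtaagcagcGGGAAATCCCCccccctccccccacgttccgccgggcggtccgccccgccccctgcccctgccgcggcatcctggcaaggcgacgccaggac
Rel held 2 overlapping matches and Nfkbia 1. The other 10 members with a match were Nfkb2, Tlr2, Tnfaip3, Traf5, Tnfrsf25, Tlr3, Tnfrsf13b, Traf3, Nfkbie and Tnfaip8l1, named here after their values were seen. For Rel and Nfkbia the RefSeq start lies within 1 base of the GENCODE start from which distances below are counted, whereas for Nfkb2, Tlr3, Tnfaip3 and Tlr2 it lies 417, 700, 247 and 159 bases inside the GENCODE gene. A match describes letters only, and says nothing about binding.

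A run of 300 bases around the centre of an open region inside Tnfaip3 is shown because this region had the largest age difference in accessibility of all regions tested at members. It is printed on the + strand, and the capitals mark letters of the kB motif, of AP-1 (TGANTCA) and of PU.1 (GAGGAA or TTCCTC).
Tnfaip3 region (chr10:19008724-19009023): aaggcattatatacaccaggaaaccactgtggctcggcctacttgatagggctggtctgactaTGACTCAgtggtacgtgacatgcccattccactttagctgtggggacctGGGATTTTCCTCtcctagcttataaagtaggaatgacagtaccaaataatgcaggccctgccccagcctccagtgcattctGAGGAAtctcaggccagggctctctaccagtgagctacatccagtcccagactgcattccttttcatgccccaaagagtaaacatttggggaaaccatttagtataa
Of 89242 tested regions read from the genome, 4.95% held the first and 1.5% the second kB form, 11.8% held AP-1 and 36.9% held PU.1 letters. Among the 8999 regions more open in OHSCs these shares were 4.18%, 1.07%, 21.2% and 36.5%.

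Total counts on genes ranged from 20475764 to 42737054 per mRNA-seq library and from 15427933 to 26260337 per ATAC-seq library. Levels are given as CPM, counts scaled to the size of the library after TMM correction. The HSC libraries of both ages held reads on 32867 to 42539 genes and all other libraries on 21375 to 25332, and the labels and the study's methods name different library kits for these sets. Summed CPM of 10 HSC markers was 4380 to 4676 in YHSCs, 4360 to 4931 in OHSCs, 2473 to 2543 in cultured and 3902 to 4048 in transplanted control HSCs. It fell to 1556 to 1641 in CMP, 730 to 853 in GMP and 706 to 781 in MEP, where Procr and Hoxb5 had no read. Erythroid markers summed to 15965 to 16656 CPM in MEP against 291 to 327 in GMP, and granulocyte markers to 72672 to 73323 CPM in GMP. Megakaryocyte markers summed to 30.6 to 31.6 CPM in MEP, the lowest of all groups, with Gp1bb and Ppbp without a read, against 715 to 726 in CMP and 494 to 557 in YHSCs. The libraries labelled MEP therefore carried erythroid but few megakaryocyte markers. Btaf1, counted as a whole gene that includes nBtaf1, was at 82.7 ± 12.04 CPM in YHSCs (SD, n = 4) and 117.5 ± 11.8 in OHSCs (SD, n = 8). In culture it averaged 151 CPM with control shRNA and 122 with either shRNA (log2 fold change -0.31, edgeR adjusted p = 0.00151), and after transplantation 161, 132 and 117.06 CPM (-0.37, adjusted p = 0.791). All 4 transplanted shRNA libraries, at 116 to 136 CPM, lay below both controls, at 158 and 164 CPM, and the difference passed the unadjusted p of 0.05. In bulk samples, fewer cells of a type and less RNA per cell cannot be told apart.

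In YHSCs 58 of the 74 members had a mean of at least 1 CPM and 35 had at least 10 CPM. Levels per kilobase of exon ranked Nfkbia first (95.7 CPM per kb), followed by Rela (50.0), Tnfrsf1b (42.5), Tnfrsf1a (42.1), Tnfrsf13b (27.1), Tnfrsf21 (26.4) and Tnfrsf18 (26.2). The length was the union of the exons of all annotated transcripts, so this ranking depends on the annotation as well as the level. Ikbkb (166 CPM over 19078 bp) and Nfkb1 (134 CPM over 12061 bp) came to 8.72 and 11.1 CPM per kb. Both TNF receptors were present at high levels, at 109 ± 7.33 and 162 ± 6.63 CPM for Tnfrsf1a and Tnfrsf1b (SD, n = 4). Tnf itself stood at 0.818 ± 0.341 CPM. The same number of members reached 10 CPM in OHSCs, cultured control HSCs had 36, transplanted control HSCs 37, CMP 32, GMP 31 and MEP 15.

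The first question was which members differ between young and old HSCs. Ligands moved in both directions, the 3 receptors called were lower and Rel fell, while no TRAF adaptor, Ikbk gene or IkB gene was called. Of 68 members that passed the filter on low counts, 2 were higher and 6 lower in OHSCs with a fold change over 1.5 and an adjusted p under 0.05 (edgeR quasi-likelihood test, Benjamini-Hochberg over all genes). These are 2.94% and 8.82% of the members tested, against 4.69% and 2.83% of the 21522 genes tested. The 2 ligands that rose were Tnfsf4 and Tnfsf13b, and those that fell were the ligand Tnfsf11, the receptors Tnfrsf13c, Tnfrsf25 and Tnfrsf11b, Tlr1 and the NF-kB subunit Rel. The median log2 fold change was -0.02 over the members and -0.01 over all genes tested.

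Tnfsf4 (chr1:161395409-161418410), which encodes OX40 ligand, a T-cell costimulator, had 9.57, 8.03, 8.00 and 7.86 CPM in YHSCs. OHSCs ranged from 13.5 to 17.2 CPM with a median of 14.8. All 8 OHSC libraries lay above all 4 YHSC libraries, and the log2 fold change was 0.88 (SE 0.092, edgeR adjusted p = 1.08e-07). Tnfsf13b, the B-cell survival factor BAFF, had 1.04, 1.19, 1.09 and 0.70 CPM in YHSCs and 1.41 to 2.47 CPM in OHSCs with a median of 2.03. The ages did not overlap, at a log2 fold change of 1.01 (SE 0.22, adjusted p = 0.00143). Tnfsf11, which encodes RANK ligand, had 3.08, 2.76, 2.65 and 2.80 CPM in YHSCs and a median of 0.621 CPM in OHSCs, between 0.312 and 1.46. Every OHSC library was below every YHSC library (-1.80, SE 0.28, adjusted p = 2.65e-05).

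Among the receptors, Tnfrsf13c (chr15:82221743-82224369), the BAFF receptor, showed the smallest adjusted p of the members. YHSCs had 21.6, 19.3, 19.8 and 20.5 CPM and OHSCs 5.58 to 8.36 with a median of 7.23. The groups were far apart, with a log2 fold change of -1.48 (SE 0.088, adjusted p = 7.29e-12). Tnfrsf25, the death receptor DR3, had 6.64, 7.38, 7.44 and 5.79 CPM in YHSCs against 2.05 to 3.54 (median 3.22) in OHSCs. It fell without overlap by 1.21 on the log2 scale (SE 0.15, adjusted p = 1.82e-06). Tnfrsf11b, the decoy receptor osteoprotegerin that binds RANK ligand, had 0.927, 1.07, 1.41 and 1.25 CPM in YHSCs against 0.117 to 0.271 (median 0.208). It too fell without overlap (-2.49, SE 0.32, adjusted p = 2.77e-06), at levels near or below 1 CPM.

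Of the NF-kB subunits, Rel (chr11:23736847-23770970), which encodes c-Rel, had 33.4, 24.8, 30.2 and 25.4 CPM in YHSCs. In OHSCs it ranged from 8.89 to 17.5 CPM with a median of 14.4, and no OHSC library reached the lowest YHSC library. The log2 fold change was -0.97 (SE 0.15, adjusted p = 0.000217). Relb, the subunit of the alternative pathway, passed the adjusted p but not the fold: YHSCs had 17.8, 16.4, 17.1 and 20.4 CPM, OHSCs 10.5 to 18.7, and the ages overlapped (-0.32, adjusted p = 0.0487). Rela (0.00), Nfkb1 (-0.05) and Nfkb2 (0.05) had log2 fold changes close to 0 and did not pass. Tlr1, a partner of Tlr2 in sensing lipopeptides, had 0.741, 0.659, 1.97 and 1.88 CPM in YHSCs and 0.149 to 0.837 in OHSCs. Its ages overlapped, with a log2 fold change of -1.84 (SE 0.42, adjusted p = 0.00249).

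Disregarding the fold, 8 members were higher and 14 lower at an adjusted p below 0.05. These are 11.8% and 20.6% of the members tested, against 11.9% and 8.67% of all genes tested. Both TNF receptors were slightly higher in OHSCs, Tnfrsf1a by 0.13 (adjusted p = 0.0479) and Tnfrsf1b by 0.15 on the log2 scale (adjusted p = 0.0208). Tlr2 was slightly lower, by -0.24 (adjusted p = 0.0226). The log2 fold changes of Tnf (-0.49, adjusted p = 0.43), Tlr4 (-0.07), Traf2 (-0.10), Traf6 (-0.04), Ikbkb (0.01), Ikbkg (0.06), Nfkbia (0.02) and Tnfaip3 (-0.08) did not pass. Of the TRAF, Ikbk and IkB genes, Nfkbie (-0.47, edgeR adjusted p = 2.97e-05), Ikbke (-0.39, 6.21e-06), Traf4 (-0.37, 0.00199) and Traf5 (-0.49, 0.00469) were lower. All of these stayed under the fold limit, and their ages did not overlap. Counted by whole libraries, 6 members were higher and 11 lower in every OHSC library than in every YHSC library, where 13.5% of all tested genes had ages that did not overlap in either direction. Summed over roles, ligands went from 144 CPM in YHSCs to 194 in OHSCs (128 to 174 without Tnfsf13os) and TNF-induced proteins from 310 to 381, while TLRs went from 86.5 to 78.1 and NF-kB subunits from 383 to 358 CPM. Most of the difference in ligands and TNF-induced proteins lay in 3 genes under the fold limit, Tnfsf10 (87.7 to 126 CPM), Tnfaip8 (184 to 228 CPM) and Tnfaip2 (72.7 to 101 CPM). Without Tnfsf10 the ligands summed to 56.8 and 67.1 CPM, and without the other two the TNF-induced proteins to 53.1 and 51.4 CPM.

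**Figure D1:**
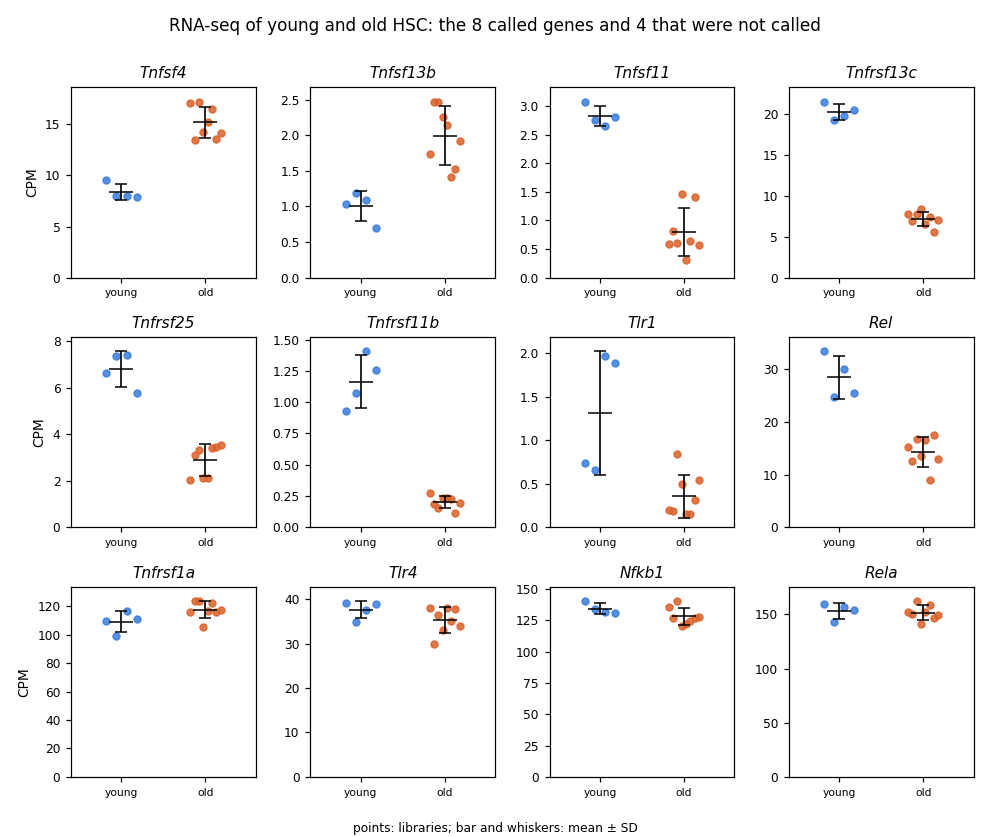
CPM in each YHSC (n = 4) and OHSC (n = 8) mRNA-seq library of the 8 members called between ages and of Tnfrsf1a, Tlr4, Nfkb1 and Rela, which were not called, with points for libraries and bars with whiskers for mean ± SD. OHSCs lie above YHSCs for Tnfsf4 and Tnfsf13b and below them for Tnfsf11, Tnfrsf13c, Tnfrsf25, Tnfrsf11b and Rel, and of the 8 called members the ages overlap for Tlr1 alone.

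Other genes of the pathway, from lists of further ligands, receptors, adaptors, signalling proteins and NF-kB target genes, showed 3 higher and 8 lower of 69 tested, 4.35% and 11.6% against 4.69% and 2.83% of all genes. Ltb, the lymphotoxin beta ligand, fell from 206 to 95.1 CPM (log2 fold change -1.09, adjusted p = 4.4e-05), and the receptor genes Relt (-0.76) and Cd40 (-1.70) fell with it. Of the TLR co-receptors and adaptors, the lipopolysaccharide co-receptor Cd14 rose by 0.86, while Ly86 (-1.95) and the kinase Irak2 (-0.70) fell. Among the NF-kB target genes, Ptgs2 (2.38) and Bcl3 (1.05) were higher and Cd83 (-2.90), Cxcl2 (-2.14) and the activation marker Cd69 (-1.37) lower. None of the 24 TNF receptor signalling genes was called. Several receptors and ligands above are also B-cell genes, and B-cell markers summed to 112 to 226 CPM in YHSCs and 35 to 47 CPM in OHSCs, except 177 CPM in OHSC replicate 7, with 6 of 10 markers called lower. OHSC replicate 7 had 1.17 CPM of the B-cell gene Cd79a and 0.624 of Ms4a1, against 10.9 to 28.3 and 7.82 to 21.7 in YHSCs. Its high sum therefore lay in other genes of the list. In that OHSC library Tnfrsf13c was at 5.58 CPM, the lowest of all, and Tlr1 at 0.312 CPM, whereas among YHSCs Tlr1 was at 1.97 and 1.88 CPM in the libraries with B-cell sums of 224 and 226 CPM and at 0.741 and 0.659 CPM in those with 112 and 119 CPM. T and NK cell markers went from 33 to 37 up to 70 to 93 CPM and megakaryocyte markers from 494 to 557 up to 1134 to 1503 CPM. Their part in the result was not tested.

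Few regions at members differed in chromatin accessibility between ages, and 15 of the 16 that did were more open in OHSCs. ATAC-seq regions were tied to a member when they overlapped its gene body or the 5 kb before it, which gave 305 regions at 73 members, 257 of them tested. With a fold change over 1.5 and an adjusted p under 0.01, 15 regions at 10 members were more open and 1 less open in OHSCs. These are 5.84% and 0.389% of the regions tested at members, against 10.1% and 2.9% of 89245 regions tested in all. Promoter regions, which overlap the stretch from 1000 bp before to 100 bp after a transcript start, were 79 of the 257 tested (30.7%) and 1 of the 16 called (6.25%). At all protein-coding genes they were likewise a smaller part of the regions called (9%) than of those tested (26.5%). The median log2 fold change was -0.08 at members and -0.01 over all regions. Without OHSC replicate 7 or YHSC replicate 2, 5 or 4 regions were less open, and 2 without OHSC replicate 5 or 8 or YHSC replicate 3.

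The region inside Tnfaip3, which encodes the ubiquitin-editing inhibitor A20, is the one printed above and spans chr10:19008409-19009337, with its centre 6784 bp downstream of the GENCODE gene start, in an intron of the coding transcripts that overlaps an exon of a retained-intron transcript. YHSC libraries had 2.26, 1.73, 2.59 and 2.36 CPM and OHSC libraries 6.70, 8.73, 6.75 and 5.66. The ages were well separated, with a log2 fold change of 1.61 (SE 0.16, adjusted p = 5.67e-12). The H3K27ac peak over the same place had a signal of 1.23 and 1.69 in YHSCs and 2.36 and 1.88 in OHSCs, a ratio of 1.45 that was not called, and Tnfaip3 mRNA did not pass the test. The Tlr4 intron region at chr4:66851843-66852516 had 1.23, 2.99, 1.75 and 1.72 CPM in YHSCs and 3.45, 5.81, 4.60 and 3.47 in OHSCs. All OHSC libraries were above all YHSC libraries (1.24, adjusted p = 4e-06), with no called change of Tlr4 mRNA.

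Regions in or near Tnfaip2 (1.04), Tnfaip1 (1.00), Tnfrsf11a (0.98), Tnfsf13b (0.95) and Ikbkb (0.90, overlapping Gm15346) were also more open on the log2 scale. Tnfsf10, the ligand TRAIL, had 3 such regions, with centres at -2616, -2188 and 4315 bp from the gene start (0.79, 0.96 and 0.82). Tnfaip8 had 4 such regions, between 0.61 and 0.75. The single promoter region called lay at -1015 bp from the start of Tnfrsf26 and overlapped E230032D23Rik, and the single region that lost accessibility lay 29922 bp into Tnfrsf21, which encodes death receptor DR6 (-0.81). Of the genes with mRNA called between ages, Tnfsf13b alone had a region called. No region of Tnfsf4, Rel, Tnfrsf13c, Tnfsf11, Tnfrsf25, Tlr1 or Tnfrsf11b was called, and those of Tnfsf4 had log2 fold changes between 0.06 and 0.11.

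**Figure D2:**
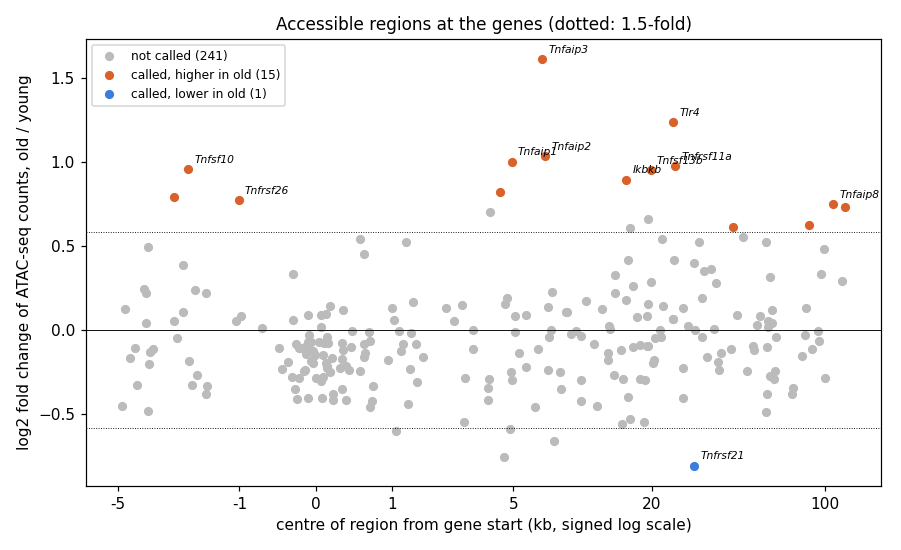
Difference in ATAC-seq accessibility between OHSCs and YHSCs (log2 fold change, 4 libraries each) of the 257 tested regions at members against the distance of the region's centre from the gene start in kb on a signed log scale. Dotted lines mark a fold change of 1.5. Colours mark the 15 regions called more open, the 1 called less open and the 241 not called, with the called regions mostly away from the start.

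H3K27ac peaks, marks of active promoters and enhancers, were called without a test when the ratio of group means passed 1.5 and each old library was at least 1.2 times each young one. Of 103 peaks at 60 members, 3 were higher (2.91%) and 1 was lower in OHSCs, against 9.11% and 2.27% of all 39557 peaks, that is 3602 higher and 898 lower. When libraries were scaled to the same median these counts were 2773 and 1437, with limma 808 and 103, without YHSC replicate 1 7054 and 1098, and without YHSC replicate 2 3846 and 2162. At members, 8, 6 and 9 peaks were higher without YHSC replicate 1, YHSC replicate 2 and OHSC replicate 1, where fewer pairings had to pass, and 2 or 0 were lower without YHSC replicate 2 or OHSC replicate 2. Scaling to the same median left 1 peak higher and 1 lower at members, and limma left 0 and 0. The peak in the Tnfaip1 gene body (1.504 and 1.19 in YHSCs, 2.27 and 3.05 in OHSCs, ratio 1.98) overlapped the open region there. The peak at the start of Tnfaip2 rose from 2.29 and 2.25 to 3.13 and 3.78 (1.52) and that at Tnfrsf8 from 1.39 and 0.804 to 1.70 and 1.72 (1.56). The peak called lower lay in Tnfrsf17, the plasma-cell receptor BCMA, at 6.08 and 5.55 against 3.97 and 3.14 (0.611). At Tnfsf4 the start carried 3.56 and 3.43 in YHSCs and 4.89 and 5.06 in OHSCs, a ratio of 1.42 under the limit. The Rel start was at 10.8 and 8.81 against 8.21 and 8.88, a ratio of 0.87.

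In peaks called in YHSCs, 62 of 73 protein-coding members had H3K4me3, the mark of active starts, at the gene start (84.9%, against 63% of all protein-coding genes), 53 had H3K27ac (72.6% against 53.6%) and 13 had H3K27me3, the Polycomb mark (17.8% against 30%). Both H3K4me3 and H3K27me3 were found at 11 members (15.1% against 16.8%). The 11 with both were Tlr5, Tnfaip6, Tnfaip8l3, Tnfrsf11a, Tnfrsf19, Tnfrsf23, Tnfrsf25, Tnfrsf8, Tnfrsf9, Tnfsf11 and Tnfsf13b, all named after the marks were read. Of these, Tnfsf13b rose and Tnfsf11 and Tnfrsf25 fell with age, as given above, and the core kinase and NF-kB genes are not among them.

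The knockdown libraries ask which members respond when nBtaf1 is reduced in OHSCs. In culture Relb and Tlr12 were lower and Tnfsf4 was higher at the adjusted p with the fold. Of 63 members tested, 3 were higher and 4 lower with a fold change over 1.5 and an unadjusted p under 0.05, the limits of the study, which are 4.76% and 6.35% of those tested against 2.45% and 0.972% of 19763 genes. With the same fold and an adjusted p below 0.05, 1 was higher and 2 were lower, together 4.76% of those tested against 0.906% of all genes in either direction. The median log2 fold change was -0.06 over members and 0.00 over all genes.

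Relb (chr7:19606217-19629438) had 17.99 and 19.1 CPM with control shRNA, 11.2 and 9.14 with shRNA1 and 10.9 and 8.07 with shRNA2. Both shRNAs were below both controls, with a log2 fold change of -0.91 (SE 0.13, adjusted p = 0.00104). Nfkb2, whose product pairs with RelB, had 52.5 and 52.0 CPM in controls and 42.6, 33.4, 44.0 and 36.2 with the shRNAs. It was lower in 4 of 4 libraries but under the fold limit (-0.42, adjusted p = 0.0415). Tlr12 went from 5.92 and 6.58 CPM to between 3.02 and 4.33 (-0.77, SE 0.18, adjusted p = 0.0322). At the adjusted p with the fold 5 members were lower without control replicate 1, and 1 was lower without control replicate 2 or without shRNA1 replicate 2.

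Tnfsf4, which was higher in old HSCs, was higher again after knockdown in culture. Controls had 9.95 and 12.2 CPM, shRNA1 libraries 19.6 and 19.7, and shRNA2 libraries 19.9 and 18.8. All 4 lay above both controls (0.81, SE 0.11, adjusted p = 0.000606). Tnf (-1.31, adjusted p = 0.123), Tnfrsf25 (-1.53, adjusted p = 0.242), Tnfaip6 (1.61, adjusted p = 0.283) and Tnfsf12 (1.14, adjusted p = 0.137) passed only the unadjusted p of edgeR. Tnfrsf25 lost that call on leaving out either control library, shRNA1 replicate 2 or shRNA2 replicate 1 (-1.62 to -1.38), Tnfaip6 on leaving out any single library but shRNA1 replicate 2 (1.35 to 1.82), and Tnfsf12 without control replicate 2 (1.084). The count of Tnfsf12 is uncertain, since the gene overlaps Tnfsf13 and Tnfsfm13 and the sources used here do not state whether counting used strand.

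The difference in Tnf rested on a single library. Control replicate 2 in culture stood apart for Tnf, Nfkbia, Tnfaip3 and Nfkbiz, the members with the largest differences between the controls. It did not for Relb (17.99 and 19.1 CPM in the controls) or Nfkb2 (52.5 and 52.0 CPM). Tnf was at 6.78 CPM in control replicate 2 against 2.12 in the other control and 1.51 to 1.98 with the shRNAs. Nfkbia was at 182 CPM there against 70.6 in the other control and 74.6 to 98.03 with the shRNAs, and Tnfaip3 at 60.2 against 20.98 and 23.0 to 26.99. Nfkbiz was at 52.3 against 13.0 CPM, and summed dissociation stress markers at 391 against 270 CPM. Without this library Tnf had a log2 fold change of -0.25 (edgeR adjusted p = 0.86), and 1 member was called higher and 2 lower. Nfkbia (-0.61, or -1.14 with adjusted p = 0.0234 without control replicate 1 and 0.23 with 0.651 without control replicate 2) and Tnfaip3 (-0.69, or -1.265 with 0.000121 and 0.26 with 0.514) changed direction with the control that was left out. Rela (-0.07), Nfkb1 (-0.10), Rel (0.00), Tlr2 (0.09), Tlr4 (-0.08) and Tnfrsf1a (0.15) did not pass.

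Of 65 other pathway genes tested in culture, 4 were called higher and 3 lower at the unadjusted p, 6.15% and 4.62% against 2.45% and 0.972% of all genes. Ltb fell from 48.6 to 25.2 CPM (-0.95, adjusted p = 0.000427) and Eda2r, the ectodysplasin A2 receptor, rose from 5.97 to 10.0 CPM (0.75, adjusted p = 0.0357). Cd14 (0.90), Ccl5 (1.77), Il6 (1.61), Cxcl2 (-3.56) and Cd69 (-2.12) passed only the unadjusted p, and for Ccl5, Il6, Cxcl2 and Cd69 the adjusted p lay between 0.106 and 0.244.

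The shRNAs themselves differed at 2 members in culture, both higher with shRNA2 than with shRNA1 (0.572% of all genes; 0 lower, 0.324% of all genes). Tlr3, the sensor of double-stranded RNA, had 1.46 and 2.09 CPM with shRNA1, 6.63 and 3.67 with shRNA2, and 1.48 and 2.79 with control shRNA. Both shRNA2 libraries lay above the other 4 (shRNA2 against shRNA1: 1.54, SE 0.34, adjusted p = 0.0119). This call was lost without shRNA1 replicate 1 (1.30, adjusted p = 0.202), shRNA1 replicate 2 (1.82, 0.0804) or shRNA2 replicate 1 (1.05, 0.0843). Tnfrsf11b had 0.678 and 0.621 CPM with shRNA1, 2.60 and 2.11 with shRNA2, and 4.19 and 2.71 with control shRNA (1.85, SE 0.32, adjusted p = 0.000416). Marker sums moved with this contrast: monocyte and macrophage markers summed to 188 to 190 CPM with shRNA1, 296 to 297 with shRNA2 and 252 to 253 with control shRNA, and erythroid markers to 581 to 604, 772 to 794 and 781 to 787 CPM. T and NK cell markers were at 35.0 to 45.6 CPM with the shRNAs and 59.4 to 61.3 in controls. Their part in the results in culture was not tested. The shRNA2 replicate 1 also had 57.3 CPM of Tnfsf10 against 26.5 in replicate 2.

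After transplantation no member passed the adjusted p. At the unadjusted p with the fold, 1 of 65 members tested was higher and 1 lower, against 1.43% and 0.811% of all genes, and DESeq2 called 0 lower. Those were Tlr5, with 0.140 and 0.105 CPM in controls against 0.911, 0.309, 0.0998 and 1.02 with the shRNAs (2.22, edgeR adjusted p = 0.881), and Tnfaip6, with 0.327 and 0.421 against 0, 0.155, 0 and 0 CPM (adjusted p = 0.866), both at levels of few reads. Leaving out control replicate 2 or shRNA1 replicate 1 left 0 higher and 0 lower, control replicate 1 or shRNA2 replicate 2 left 0 lower, and shRNA2 replicate 1 gave 2 higher and 0 lower. At any fold, 3 members (4.62%) had an unadjusted p below 0.05 by edgeR, against 5.59% of all genes. Summed granulocyte markers also varied, from 188 to 387 CPM in controls, 346 to 946 with shRNA1 and 227 to 610 with shRNA2, and their part in the Tlr5 value was not tested. Between the shRNAs no member was called by edgeR (0.00983% of all genes in either direction), and DESeq2 called 1. At an unadjusted p below 0.05 and any fold there were 10 members (15.4%), against 10.9% of all genes.

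The effect of the knockdown differed between culture and transplantation for Relb and Tnfsf4 among 67 members tested, 1 in each direction, against 0.256% of all genes with a higher and 0.219% with a lower effect in transplant. These shares of all genes were 0.0833% and 0.0482% without culture control replicate 2 and 0.537% and 0.185% without transplant control replicate 2. Relb in transplanted HSCs had 10.97 and 8.79 CPM with control shRNA, 11.2 and 10.1 with shRNA1, and 13.3 and 10.9 with shRNA2. Its knockdown effect there was 0.20 (edgeR adjusted p = 0.946), and the difference of effects was 1.11 (SE 0.22, adjusted p = 0.0312). Tnfsf4 had 15.99 and 17.3 CPM with control shRNA, 11.4 and 10.5 with shRNA1, and 16.7 and 19.1 with shRNA2. Only shRNA1 lay below the controls, and the difference of effects was -1.06 (SE 0.16, adjusted p = 0.0079). Both calls depended on single libraries. Relb had an adjusted p of 0.155 or 0.166 without culture control replicate 1 or 2, 0.0555 or 0.0923 without culture shRNA1 replicate 1 or 2, 0.0536 without culture shRNA2 replicate 2 and 0.097 without transplant control replicate 2. Tnfsf4 had 0.0767 without culture control replicate 1, where Nfkbia (0.98, adjusted p = 0.023) and Tnfaip3 (1.088, adjusted p = 0.0406) were called. Among other pathway genes, Ltb differed in the same way as Relb (1.14, adjusted p = 0.0224).

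**Figure D3:**
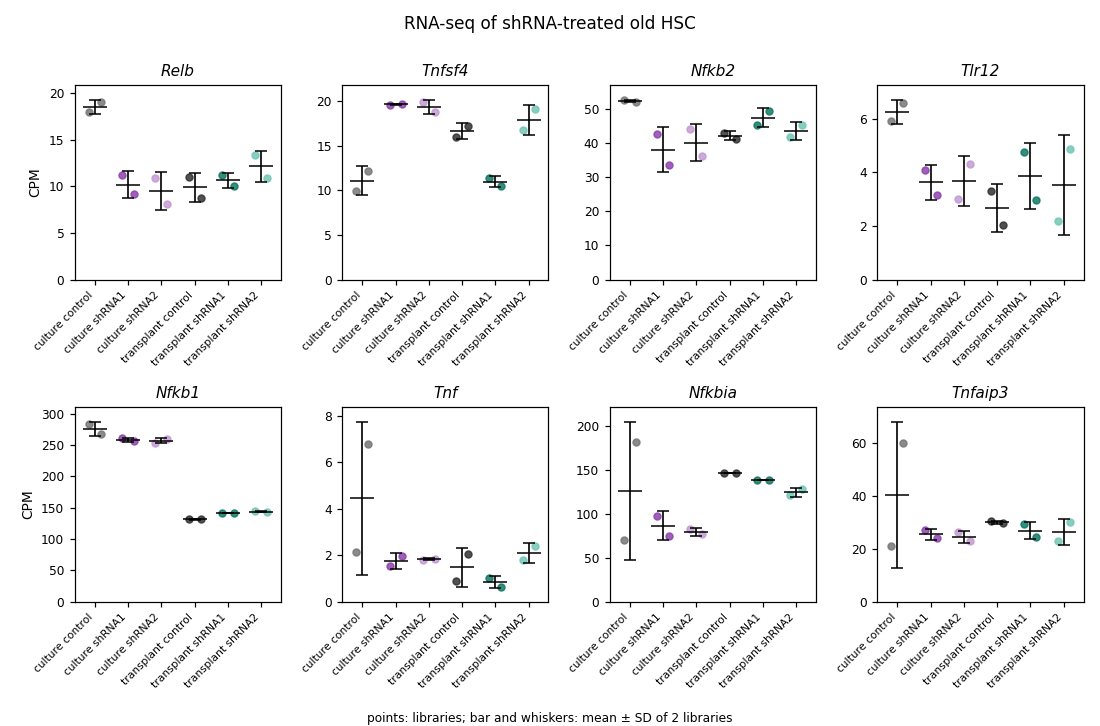
CPM in each of the 12 shRNA libraries of Relb, Tnfsf4, Nfkb2, Tlr12, Nfkb1, Tnf, Nfkbia and Tnfaip3, in culture and after transplantation, with points for libraries and bars with whiskers for mean ± SD of 2. In culture Relb sits at 17.99 and 19.1 CPM with control shRNA and at 8.07 to 11.2 with the shRNAs, the transplanted libraries lie at 8.79 to 13.3, and the second culture control stands above all other culture libraries for Nfkbia and Tnfaip3.

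More members differed between the control HSCs of the experiments than after either knockdown. Of 67 members tested 17 were higher and 12 lower in transplanted than in cultured control HSCs, 25.4% and 17.9% of those tested against 13.9% and 11.4% of all genes. The experiments also differ in extraction, sort gate, recipient and time since transduction, days in culture and months after transplantation. These cannot be told apart from the state of the cells. Of the 10 HSC markers 6 were higher after transplantation. Megakaryocyte markers summed to 1531 to 1574 CPM in cultured and 574 to 736 in transplanted controls, and erythroid markers to 781 to 787 and 1300 to 1756 CPM. Monocyte and macrophage markers were at 252 to 253 and 470 to 498 CPM, and B-cell markers at 21.2 to 21.3 and 30.4 to 33.3 CPM. T and NK cell markers were at 59.4 to 61.3 and 80.7 to 86.3 CPM, while plasma-cell markers fell from 14.7 to between 5.16 and 6.98 CPM. Their part in the result was not tested.

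Among the ligands, Tnfsf10 rose from 24.9 and 21.3 to 89.6 and 82.4 CPM (1.90, adjusted p = 0.0017) and Tnfsf9, the 4-1BB ligand, fell from 35.5 and 34.2 to 9.69 and 9.24 CPM (-1.87, adjusted p = 7.24e-08). Neither ligand overlapped between the experiments. Tnfsf4 was higher by 0.59 and Tnfsf11 lower by 1.34 on the log2 scale. Of the receptors, Tnfrsf13c rose from 2.14 and 1.92 to 13.6 and 11.8 CPM (2.65, adjusted p = 5.7e-07), Tnfrsf14 by 1.46 and Tnfrsf1b by 0.64, and Tnfrsf11b (-4.25) and Tnfrsf8 (-4.05) fell. Without culture control replicate 1 Tnfrsf11b was not called (-3.89, adjusted p = 0.0655), and without transplant control replicate 1 Tnfrsf1b fell under the fold limit (0.53). Tlr2 went from 10.9 and 9.78 to 20.97 and 24.3 CPM (1.14, adjusted p = 1.15e-05). Tnfaip8l3 had no read in cultured controls and was at least 7.23-fold higher after transplantation, taking 3 counts over the group as the floor, with an adjusted p of 0.0685 to 0.125 without either culture control library or transplant control replicate 1.

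Nfkb1, the precursor of p50, had 284 and 267 CPM in cultured and 131 and 132 CPM in transplanted control HSCs. The fall of 1.06 on the log2 scale was the most precise of the members (SE 0.048, adjusted p = 1.19e-09), and fresh YHSCs averaged 134 CPM in their own libraries. Relb fell by 0.90 (adjusted p = 0.00104), while Rel (-0.22), Nfkbia (0.22) and Tnfaip3 (-0.42) did not pass. The values of Nfkbia and Tnfaip3 turned on the culture control that stood apart: without culture control replicate 2 they were 1.062 (adjusted p = 7.07e-05) and 0.53 (0.0353), and without culture control replicate 1 -0.31 (0.077) and -0.99 (0.00042). Tnf was called lower by 1.59 (adjusted p = 0.0214), but by 0.53 with an adjusted p of 0.459 without culture control replicate 2, and by 1.104 with 0.16 without transplant control replicate 1. Of 70 other pathway genes tested 10 were higher and 12 lower, with 4 and 8 of the 22 NF-kB target genes among them. The 10 and 12 genes are 14.3% and 17.1%, against 13.9% and 11.4% of all genes.

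The progenitors ask how the pathway is distributed over the lineages. In MEP most TLRs, TNF receptors and ligands were far lower than in GMP or had no read, while most TRAF adaptors and NF-kB subunits were not called lower. Of 61 members tested 41 were lower and 5 higher in MEP than in GMP, 67.2% and 8.2% of those tested against 27.2% and 16.6% of 18234 genes. The median log2 fold change was -2.48 over the members, or -2.36 with genes without a read set at their bound, and -0.03 over all genes. In MEP 22 of the 74 members had no read in either library and 33 reached 1 CPM, against 51 in GMP and 50 in CMP. Tested members without a read in MEP passed the filter only through GMP or CMP, so they could only be lower or not called. Members low in CMP, GMP and MEP alike, such as Tlr3, Tlr9 and Tlr11, were not tested. The filter was the same for all genes and for the contrast of MEP with CMP.

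By role, against 27.2% of all genes called lower, in MEP 8 of 9 TLRs tested were lower than in GMP, as were 11 of 15 receptors, 7 of 11 ligand genes (Tnfsf13os among the lower), 6 of 7 TNF-induced proteins and 4 of 6 IkB genes, but 2 of 3 Ikbk genes, 2 of 5 NF-kB subunits and 1 of 5 TRAF adaptors. Summed TLR levels were 86.5 CPM in YHSCs, 49.5 in CMP, 76.6 in GMP and 0.383 in MEP. Summed receptors were at 690 CPM in GMP and 89.8 in MEP, whereas NF-kB subunits summed to 285 and 344 CPM and TRAF adaptors to 234 and 295 CPM. Ikbk genes summed to 427 CPM in GMP and 242 in MEP, and IkB genes to 159 and 92.8 CPM, so these 2 sums were lower in MEP and those of NF-kB subunits and TRAF adaptors higher. The higher sums rested on 1 gene each: without Rela the NF-kB subunits summed to 183 CPM in GMP and 136 in MEP, and without Traf4 the TRAF adaptors to 225 and 204 CPM.

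Tlr4, the lipopolysaccharide receptor, had 27.04 and 26.5 CPM in GMP, 10.8 and 6.18 in CMP, and no read in either MEP library. MEP was at least 512.4-fold lower than GMP and at least 162.2-fold lower than CMP, against a floor of 3 counts over the group (0.0522 CPM). Tlr2 had 25.5 and 29.3 CPM in GMP, 23.0 and 24.9 in CMP and 0.0695 and 0 in MEP (MEP against GMP -9.50, SE 0.345, adjusted p = 2.95e-11). Tlr1 (at least 145.5-fold), Tlr12 (55.66-fold), Tlr8 (25.92-fold) and Tlr5 (12.6-fold) were likewise without a read in MEP and lower than in GMP. The same held for the ligands Tnf (at least 41.95-fold), Tnfsf8 (38.77-fold) and Tnfsf9 (27.75-fold) and for the receptors Tnfrsf8 (34.74-fold) and Tnfrsf11a (33.94-fold).

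The TNF receptors were reduced but still read. Tnfrsf1a had 141 and 149.3 CPM in GMP and 3.13 and 2.37 in MEP (-5.77, SE 0.116, adjusted p = 7.72e-14). Tnfrsf1b had 153 and 153 CPM in GMP and 7.30 and 8.03 in MEP (-4.37, SE 0.0869, adjusted p = 7.05e-14). CMP lay between, at 85.7 and 92.8 CPM of Tnfrsf1a and 102 and 94.2 of Tnfrsf1b. Tnfrsf13b, the receptor TACI, fell from 117.5 and 113 CPM in GMP to 0.417 and 0.559 in MEP (-7.92, adjusted p = 1.65e-14).

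Downstream of the receptors the pattern split. Rel had 23.8 and 20.5 CPM in GMP and 0.486 and 0.349 in MEP (-5.76, SE 0.227, adjusted p = 6.83e-11), and Ikbke fell from 88.3 and 73.3 to 4.52 and 3.46 CPM (-4.39). Rela moved the other way, from 96.6 and 108 CPM in GMP to 195 and 220 in MEP (0.97, SE 0.0732, adjusted p = 6.57e-08). Nfkbia (-1.63), Nfkb2 (-0.98), Ikbkb (-0.68) and Tnfaip3 (-0.64) were lower, and Traf6 (0.11), Nfkb1 (-0.19), Traf2 (-0.20), Ikbkg (-0.41) and Relb (0.21) were not called. Tnfaip3 lost its call without GMP replicate 2 (-0.46, adjusted p = 0.087) or MEP replicate 1 (-0.47, 0.0717). The members higher in MEP besides Rela were Traf4 (95.9 and 86.2 against 9.85 and 8.68 CPM, 3.25), Tnfaip2 (694 and 690 against 86.3 and 83.5 CPM, 2.98), Tnfrsf14, which encodes the herpesvirus entry mediator (41.1 and 40.5 against 9.38 and 7.63 CPM, 2.21), and Tnfsf4 at a low level (3.35).

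**Figure D4:**
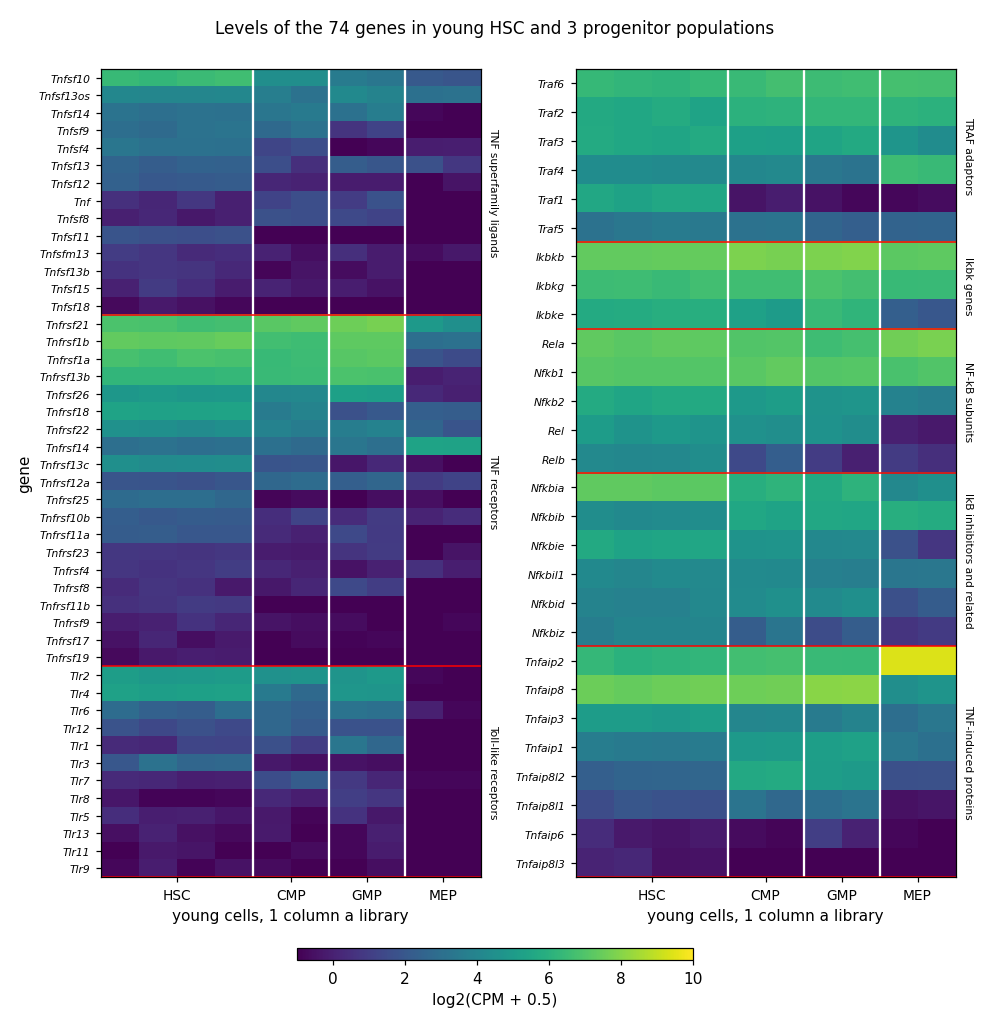
Heatmap of log2(CPM + 0.5) of the 74 members, with a column for each YHSC, CMP, GMP and MEP library and the members in rows grouped by role. MEP is at the bottom of the scale for the TLRs and most receptors and ligands, while Rela, Traf4, Tnfaip2 and Tnfrsf14 have their highest levels there.

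The genes that work beside the TLRs were mostly lower too. Of 16 TLR co-receptors and adaptors tested, 13 were lower and 1 higher in MEP than in GMP. Lbp, the lipopolysaccharide-binding protein, had 162 CPM in GMP and 0.0349 in MEP, Unc93b1, the chaperone of endosomal TLRs, 380 and 1.30 CPM (-8.23), and Cd14 had no read in MEP. Irak2 was higher in MEP (1.02). Of 24 TNF receptor signalling genes 10 were lower and 1, Tab3, higher (1.92), and of 17 NF-kB target genes 11 were lower and 2 higher, including Sod2 (0.76). Over all pathway lists 37 of 64 were lower and 6 higher, 57.8% and 9.38% against 27.2% and 16.6% of all genes. Monocyte and macrophage markers were called lower in MEP for 9 of 9 tested and erythroid markers higher for 10 of 10, in the same libraries.

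Against CMP, MEP gave 42 lower and 4 higher members of 61, 68.9% and 6.56% against 29.2% and 17.5% of all genes. The largest falls among members read in MEP were Tlr2 (-9.27) and Tnfsf14 (-8.04), and among those without a read Tlr4 was followed by Tnfsf9 (at least 140.3-fold), Tlr12 (95.02-fold), Tnfsf8 (51.43-fold), Tnf (42.8-fold) and Tlr1 (40.62-fold). Tnfrsf1a (-5.03), Tnfrsf1b (-3.69), Rel (-5.72), Nfkbia (-1.73), Relb (-1.53), Nfkb2 (-1.28) and Tnfaip3 (-0.94) were lower. Rela (0.65), Traf4 (2.40), Tnfrsf14 (2.48) and Tnfaip2 (2.71) were higher. Relb lost its call without CMP replicate 2 (-0.95, adjusted p = 0.19) or MEP replicate 2 (-1.26, 0.117), and Rela fell under the fold limit without MEP replicate 2 (0.56). These 2 contrasts share the MEP libraries, so they are not separate evidence.

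GMP and CMP differed at fewer members, 10 higher and 10 lower in GMP, 16.4% each against 6.24% and 10.5% of all genes. Higher were Tnfaip6 (3.49), Tnfrsf8 (1.98), Tlr1 (1.88), Tlr4 (1.69, 26.8 against 8.47 CPM), Tnfrsf11a (1.54), Ikbke (1.21), Tnfrsf26 (1.17), Tnfrsf1a (0.73), Tnfrsf1b (0.68) and Tnfsf13os (0.68), whose reads cannot be told from those of Tnfsf13 if strand was not used. Lower were Tnfsf4 (-5.76), Tnfrsf13c (-2.69), Tnfsf9 (-2.31), Tnfrsf18 (-1.96), Tlr7 (-1.76), Relb (-1.74), Tnfsf10 (-0.96) and Traf4 (-0.85), with Traf5 and Tnfaip8l2. Tnfrsf26 lies beside its relatives Tnfrsf22 and Tnfrsf23 on chromosome 7. Their sequences were not compared and the handling of multi-mapped reads is not stated, so the count of Tnfrsf26 is uncertain. Without GMP replicate 1 the members called higher were 6, and without CMP replicate 2 those called lower were 6. Relb (-1.15, adjusted p = 0.195) and Tlr7 (-1.37, 0.101) were not called without CMP replicate 2, nor Relb without GMP replicate 2 (-1.16, 0.107). Tnfaip6, Tnfrsf8 and Tnfrsf11a were not called without GMP replicate 1 (adjusted p of 0.223, 0.154 and 0.329). Tnfaip6 was also lost without CMP replicate 2 (0.0846), Tnfrsf8 without CMP replicate 1 (0.114), and Tnfrsf11a without CMP replicate 1 or 2 (0.0814 or 0.204).

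Young CMP against YHSCs gave 9 higher and 32 lower of 67 members tested, 13.4% and 47.8% against 23.3% and 40.8% of all genes. Cell type and library preparation cannot be told apart here, and the median of all genes was itself shifted by -0.33, with -0.64 over the members. Traf1, an adaptor induced by NF-kB, averaged 44.6 CPM in YHSCs and 0.328 in CMP (-7.06), and Tnfsf11 and Tnfrsf11b, without a read in CMP, were at least 60.25-fold and 24.85-fold lower. Relb fell from 17.9 to 3.29 CPM (-2.44), Tlr4 from 37.6 to 8.47 (-2.14), Nfkbia from 154 to 64.6 (-1.25), Nfkb2 from 49.3 to 32.3 (-0.60, or -0.51 without CMP replicate 1) and Tnfaip3 from 32.8 to 16.3 CPM (-1.001). Higher in CMP were Tnfaip8l2 (3.27), Tlr7 (2.52), Tnfsf8 (2.47), Tnf (1.46, 2.24 against 0.818 CPM), Tnfaip1 (1.45), Tnfaip8l1 (1.40), the IkB gene Nfkbib (1.17) and Tnfrsf12a (1.03). Ikbkb, Ikbkg, Rela, Nfkb1 and Traf6 were within 0.43 of 0 on the log2 scale and not called.

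**Figure D5:**
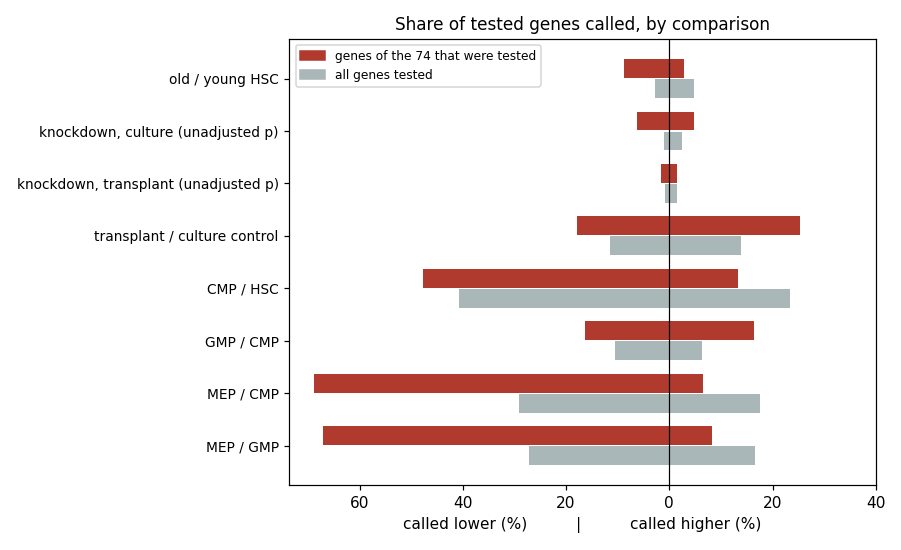
Share of tested members called higher (to the right) or lower (to the left) in 8 mRNA-seq comparisons, in percent, with a bar for the members and a bar for all genes tested. The widest gap is among genes lower in MEP, 67.2% against 27.2% relative to GMP and 68.9% against 29.2% relative to CMP, while for age the shares are 2.94% higher and 8.82% lower against 4.69% and 2.83%.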

How the data were processed

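The analysis used 30 mRNA-seq, 8 ATAC-seq, 4 H3K27ac, 2 H3K4me3 and 2 H3K27me3 libraries, grouped by their labels. The deposited mRNA-seq files hold raw counts, which the authors obtained with featureCounts (GENCODE M22 genes) after adapter trimming and STAR alignment to mm10. The deposited ATAC-seq file holds raw counts in 127695 consensus regions, built by the authors from MACS peaks of BWA-aligned reads without duplicates, reads mapped to several places or blacklisted sites. The deposited histone tables hold, for each peak, a signal after the authors scaled libraries to a common read number. Their further columns, an old to young ratio (fold) and its log2 by the authors, were not used. The tools named here are those in the submitters' processing notes and the study's methods. Gene positions were read from GENCODE M21 on GRCm38, and upstream sequences were counted from RefSeq starts. How counting treated strand and multi-mapped reads is not stated in them.

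From these files, 92 spike-in rows were left out, 0 pairs of libraries held identical counts, and after filterByExpr and TMM the counts entered edgeR 4.0.16 (robust quasi-likelihood test, Benjamini-Hochberg adjustment over all genes tested) in R 4.3.3. ATAC-seq regions needed more than 1.5 CPM in at least 4 libraries. H3K27ac was compared by ratios without a test, with limma 3.58.1 on log2(signal + 0.5) as an alternative. DESeq2 1.42.0, another scaling, no filter, a replicate block and leaving out each library were the other alternatives. The edgeR scripts were tested on simulated data. Python 3.11.15 was used for tables and figures. In total 8 per-sample columns (4 old ATAC-seq, 4 old H3K4me3 and H3K27me3) were not used, since no listed sample could be tied to them. Hi-C, H3K36me3 and progenitor ChIP-seq were not analysed here.

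Deviations of same-numbered libraries correlated at -0.20 to 0.08 between YHSC and OHSC and at -0.14 to 0.27 between groups of 2, and nothing in the labels ties the numbers to a shared animal or batch, so they were not taken as pairs. The members and the lists of pathway genes and markers were chosen with earlier results of these data known. Named with values were 16 central genes and, in each comparison, up to 8 called members with the largest change in each direction, and of each pathway list up to 3 called genes in each direction. Precision follows from depth: 3 counts over a group were the floor for genes without a read, which covers counting error only.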

Additional observations from a re-analysis of the deposited data

Results flagged for a closer look

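In groups of 4 to 10 libraries, 4 of 78 groups examined held a library whose gap to the nearest of the others exceeded Dixon's 95% critical value, where chance gives about 1 in 20. Ikbkb was at 152.9 CPM in OHSC replicate 7 against 164 to 172.2 CPM in the other OHSC libraries. Tnfrsf1a was at 105.6 CPM in OHSC replicate 4 against 115.5 to 123.7 CPM in the others. Tnfsf4 was at 9.565 CPM in YHSC replicate 1 against 7.857 to 8.034 CPM in the others, still below all OHSC libraries. The accessible region before Tnfrsf26 was at 1.716 CPM in YHSC ATAC-seq replicate 4 against 1.463 to 1.506 CPM in the others. The knockdown effect differed between transplanted and cultured HSCs for Relb by 1.114 on the log2 scale and for Tnfsf4 by -1.061, tested as an interaction with edgeR.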

How the results depend on the processing

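Over 252 results on named members and 2470 values recomputed for them under the alternatives, 2324 kept their direction and side of the threshold, 69 kept the direction but lost the call, 10 gained a call and 67 turned the direction. Of the values that turned, for age Rela was -0.0029 with DESeq2, -0.0028 with its size factors and -0.00022 with a replicate block, which also gave Nfkbia -0.017 for age and Tnf 0.067 after knockdown in transplant. Without the filter on low counts Traf6 was -0.021 and Rel -0.0023 for GMP against CMP, and Traf2 -0.042 for MEP against CMP. For MEP against CMP, Ikbkb gained a call without the filter (-0.62), without CMP replicate 2 and without MEP replicate 2 (-0.62 to -0.55 over the libraries left out), and Rel after knockdown in transplant gained one, at the unadjusted p, without control replicate 1 (0.10 to 0.71). Counts of members called that moved by over 1.5 times were the following, and the cause was not tested. With a replicate block, members lower after knockdown in culture at the adjusted p with the fold were 1 (2 without it) and those higher after knockdown in transplant 0 (1). With DESeq2, members lower after knockdown in transplant were 0, and those higher with shRNA2 than shRNA1 were 1 in culture and 1 in transplant. Without the filter on low counts, the knockdown effect was higher in transplant at 3 members and lower at 2, shRNA2 was higher than shRNA1 in transplant at 1, and 3 regions at members were less open. H3K27ac peaks higher in OHSCs were 1 after scaling to the same median, 0 with limma and 1 with limma and a replicate block, and lower ones 0 with limma.

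Leaving out each library in turn gave, as higher and lower, 2 to 3 and 6 to 7 members for age, 1 to 3 and 2 to 6 for the knockdown in culture (1 and 1 to 5 at the adjusted p), 0 to 2 and 0 to 1 in transplant (0 and 0), 0 to 3 and 0 to 2 for the difference of effects, and 1 to 3 and 0 for shRNA2 against shRNA1 in culture (0 and 0 in transplant). The ranges were 13 to 14 and 9 to 11 for transplanted against cultured controls, 5 and 38 to 42 for MEP against GMP, 6 to 10 and 6 to 11 for GMP against CMP, 3 to 4 and 41 to 44 for MEP against CMP, and 9 to 10 and 28 to 34 for CMP against YHSCs. They were 11 to 17 and 1 to 5 for ATAC-seq regions, and 4 to 9 and 0 to 2 for H3K27ac peaks, where fewer pairings had to pass. A lone library left in a group was assumed to vary like the others.

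Log2 fold changes of central members whose direction turned when 1 library was left out had the following values. For age, Nfkbia ranged from -0.014 to 0.057 and Rela from -0.027 to 0.026. For the knockdown in culture, Nfkbia ranged from -1.14 to 0.23, Rel from -0.24 to 0.29, Rela from -0.14 to 0.0012 and Tnfaip3 from -1.265 to 0.26. For the knockdown in transplant, Rela ranged from -0.0061 to 0.056, Tlr2 from -0.20 to 0.013, Tlr4 from -0.021 to 0.042, Tnf from -0.49 to 0.71, Traf2 from -0.021 to 0.088 and Traf6 from -0.073 to 0.032. For the difference of these effects, Nfkbia ranged from -0.39 to 0.98 and Tnfaip3 from -0.43 to 1.088. For shRNA2 against shRNA1 in culture, Ikbkg ranged from -0.058 to 0.0019, Nfkb1 from -0.024 to 0.012, Nfkb2 from -0.090 to 0.26, Nfkbia from -0.30 to 0.091, Relb from -0.34 to 0.10, Tnf from -0.12 to 0.27 and Tnfaip3 from -0.15 to 0.042. For shRNA2 against shRNA1 in transplant, Ikbkb ranged from -0.0081 to 0.061, Tlr4 from -0.15 to 0.0044, Tnfaip3 from -0.24 to 0.15, Tnfrsf1a from -0.093 to 0.074 and Tnfrsf1b from -0.15 to 0.037. For transplanted against cultured controls, Nfkbia ranged from -0.31 to 1.062, Rel from -0.56 to 0.064 and Tnfaip3 from -0.99 to 0.53. For GMP against CMP, Nfkbia ranged from -0.32 to 0.099, Rel from -0.073 to 0.14, Tnf from -0.60 to 0.43 and Traf6 from -0.12 to 0.16. For MEP against CMP, Traf2 ranged from -0.042 to 0.048 and Traf6 from -0.017 to 0.26. For MEP against GMP, Relb ranged from -0.38 to 1.25. Of these, calls were gained by Nfkbia and Tnfaip3 when 1 culture control was left out.

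Over all genes, higher and lower calls for shRNA2 against shRNA1 in transplant were 2 and 0 with edgeR, 81 and 49 with DESeq2 and 229 and 182 without the filter. For the difference of effects they were 55 and 47, 125 and 108, and 207 and 263. Leaving out 1 library gave 19 to 122 and 11 to 95 for the difference of effects, 60 to 255 and 33 to 61 for shRNA2 against shRNA1 in culture (113 and 64 with all) and 0 to 16 and 0 to 8 in transplant. Without the filter, lower calls were 15260 against 9134 for CMP against YHSCs, 341 against 165 after knockdown in transplant (higher 387 against 290, 53.2% against 63.7% of calls), 354 against 192 in culture and 3887 against 2592 in ATAC-seq. With DESeq2, lower calls for shRNA2 against shRNA1 in culture were 42 against 64.

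The replicate block rests on numbers alone: correlations of deviations between same-numbered libraries were -0.20 to 0.08 for the ages and -0.14 to 0.27 for groups of 2, and it changed no other count of members by over 1.5 times. Over all genes it gave 1 higher and 1 lower call for shRNA2 against shRNA1 in transplant, and over all H3K27ac peaks limma gave 808 and 103 without it and 1941 and 350 with it. For ATAC-seq alone, no paired analysis was possible because its groups share no replicate numbers. Depth limits the genes near the floor of 3 counts, such as Tlr5 and Tnfaip6 in transplanted HSCs and the receptors without a read in MEP, and groups of 2 libraries limit all knockdown and progenitor results.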
